A study of Mus musculus with 8 samples.

Results

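The BCL2 family of apoptosis regulators was followed here through 10 genes, taken by symbol from the deposited count table. All 10 were found among its 41730 rows, and all 10 passed the filter on low counts. They comprised the anti-apoptotic genes Bcl2, Bcl2l1 and Mcl1, the effector genes Bax and Bak1, and the BH3-only genes Bid, Bad, Bcl2l11, Bbc3 and Pmaip1. The libraries were of CD8+ T cells from OT-I mice, whose transgenic receptor recognises the ovalbumin peptide SIINFEKL. The cells had been cultured with bone marrow-derived dendritic cells that were loaded with this peptide and were LXR-/-, and were then sorted by flow cytometry. One group of 4 libraries came from cultures with the vehicle DMSO (control) and the other group of 4 from cultures with 2 µM RGX-104, a synthetic agonist of the liver X receptors (LXR). The labels put the LXR deletion in the dendritic cells of both groups and give the T cells no genotype other than OT-I. Age, culture time and any pooling of the mice were not stated in the labels. Nor do the labels say that the 4 libraries per arm were independent cultures or mice, and the p-values below therefore reflect library-to-library spread that may be technical.

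BCL2 family proteins decide whether the mitochondrial outer membrane is opened during apoptosis. BAX and BAK form the pores, the anti-apoptotic members hold them and the BH3-only proteins in check, and the BH3-only proteins relay stress, cytokine withdrawal or DNA damage to the others. In T cells BIM, the product of Bcl2l11, is known for removing effector cells as an immune response ends, and BCL2, BCL-XL and MCL1 for keeping naive, activated and memory cells alive.

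With RGX-104, 2 of the 10 genes fell and 1 rose, and the other 7 were not called in the main comparison, though Mcl1 passed under some alternatives given below. Bcl2l11 fell by 25.9%, and Bak1, encoding the pore-forming protein BAK, fell by 16.2%. Bcl2l1, encoding the anti-apoptotic protein BCL-XL, was 1.122-fold higher. A gene is called changed here when the edgeR quasi-likelihood test gave a Benjamini-Hochberg adjusted p under 0.05 over all 13290 genes tested. Of those genes 4.82% were called higher and 4.13% lower, against 1 and 2 of the 10 members. The median log2 fold change was -0.08 over the 10 members and 0.000716 over all tested genes.

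Library totals ranged from 30642316 to 37714355 counts, and the RGX-104 libraries included the smallest. The LXR targets Abca1 and Abcg1, both encoding cholesterol transporters, were at 1.72 ± 0.295 and 43.3 ± 1.399 CPM in control libraries and at 125 ± 6.21 and 159 ± 2.96 CPM with RGX-104 (SD, n = 4). CPM are counts-per-million on TMM-scaled library sizes. The 8 markers listed for CD8 T cells summed to 2601 to 2716 CPM in controls and to 2456 to 2512 CPM with RGX-104. Of them 1 was called higher and 4 lower, beside 4.82% and 4.13% of all tested genes. The 15 dendritic cell markers summed to 825 to 873 and 813 to 832 CPM. Most of each sum was Ccr7, which T cells also express and which was called lower, with means of 682 and 634 CPM. The sums therefore say little about the other dendritic cell markers. Cd74 (means 26.5 and 33.2 CPM) and Ccl22 (2.05 and 4.83 CPM) were called higher. Of those 15, Flt3, Xcr1, Clec9a, H2-Aa, H2-Ab1 and Ccl17 had at most 20 counts in any library. Among 9 macrophage and monocyte markers only Ctss was called (higher), and Lyz2, Csf1r, Spi1, Tyrobp, Fcer1g, Adgre1 and Mertk likewise had at most 20 counts. The list summed to 30.9 to 34.8 CPM with DMSO and to 38.2 to 41.5 CPM with RGX-104. Most of each sum was Ctss, with means of 27.1 and 34.7 CPM, so the sums say little about the other markers. Cd68 was at 5.08 and 4.77 CPM and was not called. The 5 NK cell markers summed to 247 to 266 and 219 to 237 CPM, with Nkg7, which CD8 T cells also express, called lower and Ncr1, Klrb1c and Klra8 at most at 20 counts. The part of these marker differences in the results below was not tested, and in bulk RNA fewer cells of a type and less RNA per cell cannot be told apart.

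Sequence upstream of the annotated starts is shown first for the members that changed and for 1 member that did not, because Bcl2l11, which was called, and Bbc3, which was not, share a forkhead (FOXO) core motif there. RefSeq start regions (GRCm38.p6, 250 bases before to 50 after each start) were taken for 9 of the 10 members, in 15 windows. Pmaip1 was not included, so the motif counts over member windows say nothing about that gene. The 250 bases before a start are printed 5′ to 3′ on the gene's strand, for windows where these bases lie outside the gene's own annotated exons. This left out the only window of Bak1 and 2 of the 3 windows of Bcl2l1. Of the 3 windows of Bbc3, all outside its exons, only the one that holds the forkhead core is printed, and windows of other members are not shown. Capitals mark the GC box GGGCGG and the forkhead core TGTTTAC, on either strand.

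The windows are Bcl2l11 start 1 (chr2:128125788-128126037, plus strand) and start 2 (chr2:128127325-128127574, plus strand), Bcl2l1 start 3 (chr2:152831729-152831978, minus strand) and Bbc3 start 2 (chr7:16310011-16310260, plus strand).
Bcl2l11 start 1: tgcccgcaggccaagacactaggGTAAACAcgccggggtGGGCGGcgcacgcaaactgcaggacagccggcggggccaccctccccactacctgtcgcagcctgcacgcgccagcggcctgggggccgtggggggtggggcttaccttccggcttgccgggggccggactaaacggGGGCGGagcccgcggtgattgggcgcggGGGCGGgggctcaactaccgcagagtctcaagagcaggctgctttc
Bcl2l11 start 2: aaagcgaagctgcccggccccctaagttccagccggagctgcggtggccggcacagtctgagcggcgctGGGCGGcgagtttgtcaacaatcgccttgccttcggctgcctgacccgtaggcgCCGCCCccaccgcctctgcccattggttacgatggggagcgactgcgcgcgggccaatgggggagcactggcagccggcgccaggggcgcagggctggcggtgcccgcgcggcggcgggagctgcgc
Bcl2l1 start 3: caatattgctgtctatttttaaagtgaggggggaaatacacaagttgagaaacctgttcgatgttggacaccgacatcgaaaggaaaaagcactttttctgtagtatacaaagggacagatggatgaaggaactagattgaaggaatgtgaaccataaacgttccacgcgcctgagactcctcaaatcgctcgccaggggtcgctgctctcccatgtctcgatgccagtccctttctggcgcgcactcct
Bbc3 start 2: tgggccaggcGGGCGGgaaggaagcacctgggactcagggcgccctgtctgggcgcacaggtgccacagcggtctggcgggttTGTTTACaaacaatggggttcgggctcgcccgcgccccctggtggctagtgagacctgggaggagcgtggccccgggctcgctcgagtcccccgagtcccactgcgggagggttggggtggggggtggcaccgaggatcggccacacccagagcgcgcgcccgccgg
The forkhead core lies from -227 to -221 before start 1 of Bcl2l11, on the opposite strand, and from -167 to -161 before start 2 of Bbc3. These were 2 of the 15 member windows, and 3.65% of all 32851 windows held the motif. The GC box was in 10 of the 15 and in 35.7% of all. It was in both windows of Bcl2l11, and neither motif was in the windows of Bcl2l1 and Bak1.

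Another 5 motifs were searched on both strands and found in 0 of the 15 member windows. They were the LXR element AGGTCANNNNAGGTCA (0.0152% of all windows), the STAT element TTCNNNGAA (8.30%), the cyclic AMP element TGACGTCA (1.79%), the interferon-type repeat GAAANNGAAA (3.44%) and the TATA box TATAAA (13.6%). A match or its absence describes only these letters in these windows. The motifs were chosen after the results were known. The share of G and C was 71% and 74% in the windows of Bcl2l11, against a median of 52.7% over all windows. Members that were not called were as high, with Bcl2 at 76% and Bbc3 at 76%, 74.7% and 78%. The windows of Bcl2l1 were at 49.3%, 55.7% and 52.3% and that of Bak1 at 58.3%.

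Among the anti-apoptotic genes, Bcl2l1 rose. The gene lies on chromosome 2 from 152758732 to 152833803 (GRCm38, minus strand) and encodes both the long, protective and the short form of BCL-X, which counts per gene do not separate. It was at 115, 112, 113 and 120 CPM in control libraries 1 to 4 and at 131, 122, 126 and 138 CPM in RGX-104 libraries 1 to 4. Every RGX-104 library lay above every control library. The means were 115 ± 3.29 and 129 ± 7.08 CPM (SD, n = 4), a log2 fold change of 0.17 ± 0.03 (SE; edgeR adjusted p = 0.00244). Against a fold of 1.2 the change did not pass (edgeR adjusted p = 1).

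Mcl1 encodes a short-lived protein on which activated T cells depend, and had the highest CPM of the family. The gene lies on chromosome 3 from 95656944 to 95663179. It was at 319.5, 319.1, 333 and 338 CPM in control libraries and at 314, 307, 307 and 316 CPM in RGX-104 libraries. The groups did not overlap, yet the difference did not pass the test (log2 fold change -0.08 ± 0.03, SE; edgeR adjusted p = 0.0896). It passed when the number of the table column was added as a block (edgeR adjusted p = 0.0362). It also passed with limma-voom with sample weights (adjusted p = 0.0423) and without control replicate 1 (edgeR adjusted p = 0.0490). In the other 16 of 19 alternatives it did not pass. Among these were DESeq2 (adjusted p = 0.0670) and 1 surrogate variable (edgeR adjusted p = 0.264). Without any other single library the edgeR adjusted p was up to 0.231. The block raised the calls over all tested genes to 8.34% higher and 6.82% lower, and Mcl1 was the only one of the 10 members whose call it changed.

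Bcl2, the founding member of the family, did not pass. The gene lies on chromosome 1 from 106538176 to 106714290. It was at 182, 190, 187 and 178 CPM in control libraries and at 189, 185, 191 and 188 CPM in RGX-104 libraries, so the groups overlapped. The log2 fold change was 0.03, with a 95% interval from -0.03 to 0.09. The interval includes 0, so a small difference in either direction is possible.

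**Figure D1:**
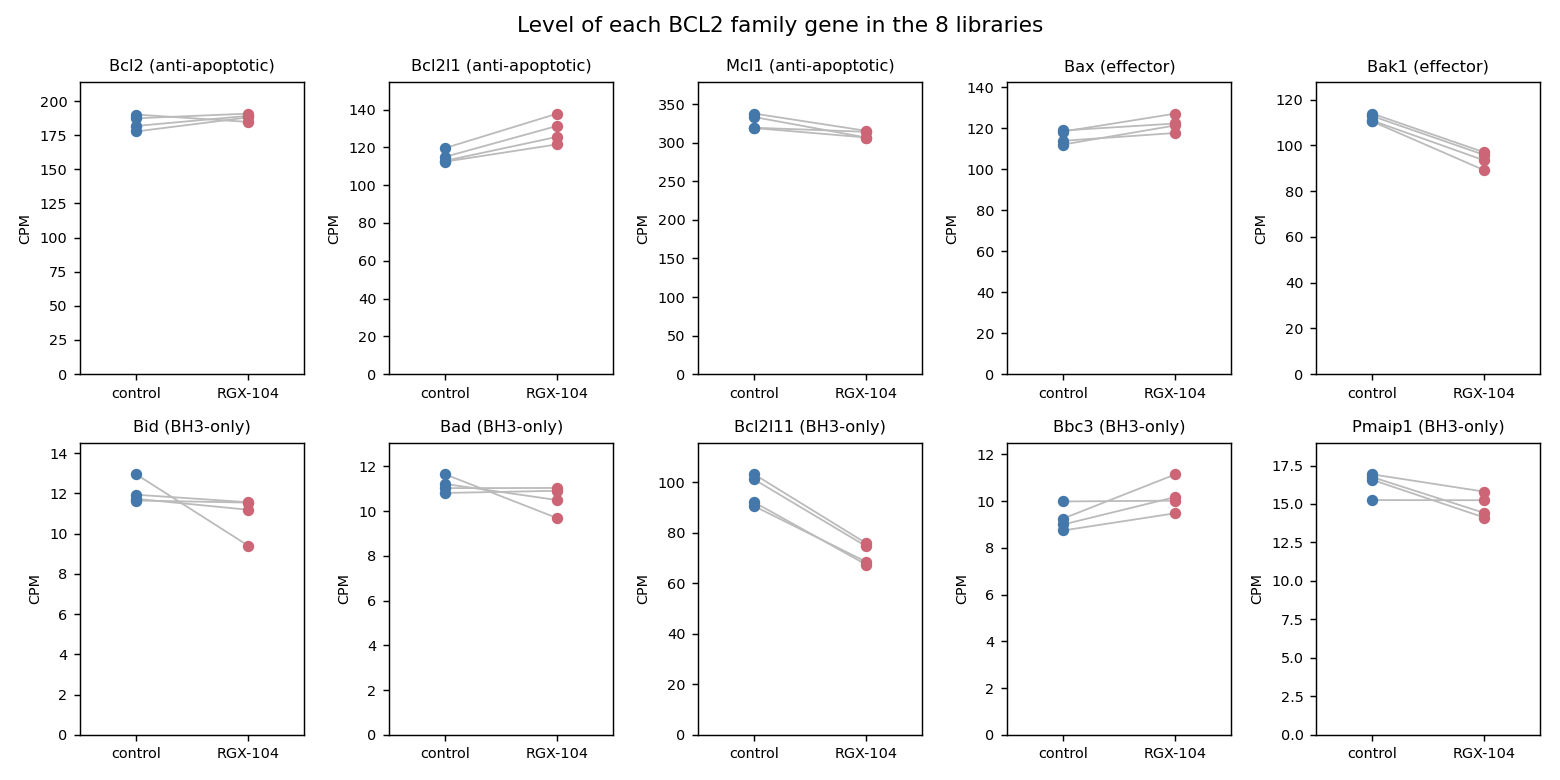
Level of each of the 10 genes in CPM (vertical axis, from 0) in the 4 control and 4 RGX-104 libraries. Each point is 1 library, and lines join libraries with the same column number. Bcl2l11 and Bak1 are lower in all RGX-104 libraries and Bcl2l1 is higher, whereas Bcl2 and Bad overlap between the groups.

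The effectors differed from each other. Bak1, on chromosome 17 from 27019812 to 27028627 (minus strand), was at 110.5, 110.9, 113 and 114 CPM in control libraries and at 89.1, 93.4, 95.8 and 96.9 CPM in RGX-104 libraries. Every RGX-104 library lay below every control library, and RGX-104 library 1 was the lowest. The means were 112 ± 1.63 and 93.8 ± 3.46 CPM (SD, n = 4), a log2 fold change of -0.26 ± 0.03 (SE; edgeR adjusted p = 1.64e-06). Against a fold of 1.2 the change did not pass (edgeR adjusted p = 1). Ggnbp1 overlaps Bak1 on the opposite strand but held at most 64 counts in a library, where Bak1 held at least 2753.

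Bax encodes the other pore-forming protein. The gene lies on chromosome 7 from 45461695 to 45466903. It was at 119, 114, 112 and 118 CPM in control libraries and at 122, 118, 121 and 127 CPM in RGX-104 libraries. The groups overlapped and the gene was not called (log2 fold change 0.08, 95% interval 0.01 to 0.14; edgeR adjusted p = 0.136). Within each library the ratio of Bax to Bak1 counts, which no scaling enters, was 0.993 to 1.08 in controls and 1.26 to 1.37 with RGX-104.

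Bcl2l11 changed most among the BH3-only genes and in the family. It lies on chromosome 2 from 128126038 to 128162547 (plus strand) and encodes the several isoforms of BIM, which counts per gene do not separate. It was at 90.5, 103, 101 and 92.0 CPM in control libraries and at 68.4, 75.8, 74.6 and 67.3 CPM in RGX-104 libraries. The groups were apart, and in both of them the libraries from columns 1 and 4 were lower than those from columns 2 and 3. The means were 96.7 ± 6.32 and 71.5 ± 4.26 CPM (SD, n = 4), a log2 fold change of -0.43 ± 0.05 (SE; edgeR adjusted p = 1.51e-05). It was the only member called against a fold of 1.2 (edgeR adjusted p = 0.0342), and 4.5% of all tested genes had a larger absolute log2 fold change. Acoxl overlaps the gene by 215 bases in RefSeq and held 27 to 56 counts per library, where Bcl2l11 held at least 2114.

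Libraries with the same column number were close in their change of Bcl2l11. The RGX-104 to control ratio was 0.756, 0.735, 0.738 and 0.732 for numbers 1 to 4. For Bcl2l1 it was 1.14, 1.08, 1.11 and 1.15, and for Bak1 0.807, 0.843, 0.849 and 0.851. Ratios on the same side of 1 for every number were also found for Mcl1, Bid and Pmaip1 (below 1) and for Bax and Bbc3 (above 1). None of these genes was called. The share of all tested genes with such ratios was not computed, so they are not given as a trait of the family. The ratios of Bcl2 and Bad fell on both sides. For Bid they ran from 0.726 to 0.991, a wider range at a lower depth. The numbers are those of the table's columns, and the labels do not say what they stand for.

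The other BH3-only genes were far lower in counts and none was called. Bbc3 encodes PUMA, a target of p53, and lies on chromosome 7 from 16308398 to 16318334. It was at 8.75, 9.26, 9.99 and 9.002 CPM in control libraries and at 9.48, 11.1, 10.02 and 10.2 CPM in RGX-104 libraries. The groups overlapped, and the gene was not called (log2 fold change 0.14 ± 0.07, SE; edgeR adjusted p = 0.221). A window of Bbc3, like a window of Bcl2l11, holds the forkhead core printed above. The difference in fold change between these genes, and any part of the motif in it, was not tested.

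Pmaip1 encodes NOXA, which binds MCL1, and lies on chromosome 18 from 66458604 to 66465558. It was at 15.26, 16.6, 16.7 and 16.9 CPM in control libraries and at 15.25, 14.1, 14.4 and 15.8 CPM in RGX-104 libraries. The groups overlapped through control library 1 and the gene was not called (log2 fold change -0.14 ± 0.06, SE; edgeR adjusted p = 0.128).

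Bid encodes a BH3-only protein that caspase-8 cleaves, and lies on chromosome 6 from 120893119 to 120917062. It was at 11.93, 12.9, 11.64 and 11.7 CPM in control libraries and at 11.56, 9.39, 11.54 and 11.2 CPM in RGX-104 libraries. The groups were barely apart, with RGX-104 library 2 lowest, and the gene was not called (log2 fold change -0.15 ± 0.07, SE; edgeR adjusted p = 0.211). Bid overlaps Bcl2l13 on the opposite strand by 628 exonic bases, and Bcl2l13 held 254 to 331 counts where Bid held 332 to 439, so the division of reads between them is uncertain. A second row for Bid, a copy, held at most 2 counts.

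Bad encodes a BH3-only protein held inactive by phosphorylation, and lies on chromosome 19 from 6941861 to 6951905. It was at 10.8, 11.03, 11.6 and 11.2 CPM in control libraries and at 10.9, 11.03, 9.68 and 10.5 CPM in RGX-104 libraries. The groups overlapped and the gene was not called (log2 fold change -0.09, 95% interval -0.22 to 0.04; edgeR adjusted p = 0.457). Bad overlaps Gpr137 on the opposite strand by 524 exonic bases, and Gpr137 held 354 to 446 counts, about as many as Bad. Counting without strand would not tell them apart in those bases, out of 2558 exonic bases of Bad. No source used here gives the strand setting.

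Counted by separation alone, the CPM of the groups did not overlap in 5 of the 10 members, 1 higher (Bcl2l1) and 4 lower (Bcl2l11, Bak1, Mcl1 and Bid). Over all tested genes the share was 14.5%.

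Per length of exon, the family was ordered from Mcl1 to Bid. With counts divided by the union of annotated exons (GENCODE M21), control levels were 95.8 ± 2.80 CPM per kilobase for Mcl1, 73.5 ± 2.14 for Bax and 46.5 ± 0.677 for Bak1 (SD, n = 4). Bcl2l1 followed at 25.1 ± 0.718 and Bcl2 at 20.1 ± 0.607. The BH3-only genes were the lowest, led by Bcl2l11 at 12.04 ± 0.788 and Pmaip1 at 5.99 ± 0.278, with Bid last at 3.40 ± 0.169. Bad and Bbc3, at 4.37 ± 0.138 and 4.35 ± 0.252, did not differ beyond their spread. With RGX-104 the order was kept for the other 8 genes, and Bak1 stood at 39.0 ± 1.44, Bcl2l1 at 28.2 ± 1.54 and Bcl2l11 at 8.91 ± 0.530 CPM per kilobase.

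The length used changes part of this order. Divided by the longest annotated transcript, Bax came first in controls at 105 CPM per kilobase and Mcl1 second at 95.8, and Bak1 and Bcl2l1 were close at 46.9 and 44.8. With RGX-104 the last 2 changed places, at 39.3 for Bak1 and 50.3 for Bcl2l1. Bad came before Pmaip1 in controls, at 7.29 and 6.00457. Which transcript the T cells used was not measured.

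**Figure D2:**
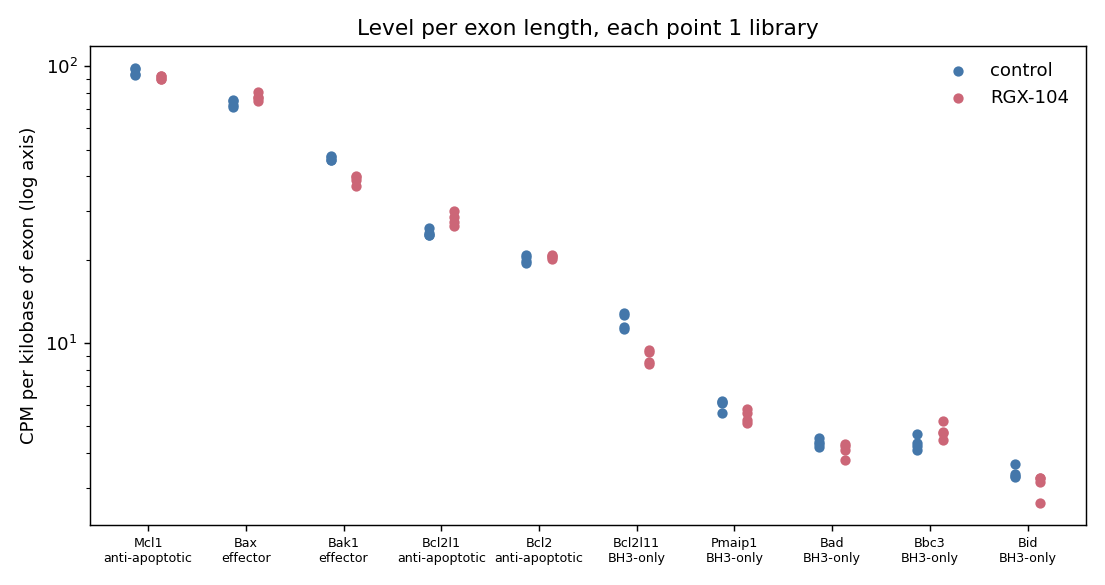
CPM per kilobase of annotated exon (vertical log axis) for the 10 genes, ordered by their control mean. Each point is 1 library, control on the left and RGX-104 on the right of each pair. The 5 BH3-only genes lie below the anti-apoptotic and effector genes in every library, with Bcl2l11 the highest of them.

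Summed by role per kilobase of exon, the BH3-only genes came to 28.6 to 31.3 in control and 26.1 to 26.8 in RGX-104 libraries, and Bcl2l11 was the largest part of both sums. The 3 anti-apoptotic genes summed to 138 to 144 and 136 to 143, and the 2 effectors to 118 to 122 and 113 to 121. The sums of these 2 roles overlapped between the groups. These sums describe transcripts and are given without a test.

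Ratios of counts within a library set protective genes against Bcl2l11 without any scaling between libraries. Bcl2l1 per Bcl2l11 was 1.27, 1.09, 1.117 and 1.30 in control libraries and 1.92, 1.605, 1.68 and 2.05 in RGX-104 libraries, so that the mean ratio was 1.52 times as high. Bcl2 per Bcl2l11 was 1.84 to 2.01 and 2.44 to 2.79, and Mcl1 per Bcl2l11 was 3.10 to 3.67 and 4.05 to 4.68. All 3 ratios were higher in each RGX-104 library than in any control library. They share Bcl2l11 as denominator, so they restate its fall and are not separate results. Of the 3 numerators only Bcl2l1 was itself called higher. Mcl1 per Pmaip1, the ratio of MCL1 to its partner NOXA, overlapped at 19.3 to 20.9 and 19.97 to 21.7.

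**Figure D3:**
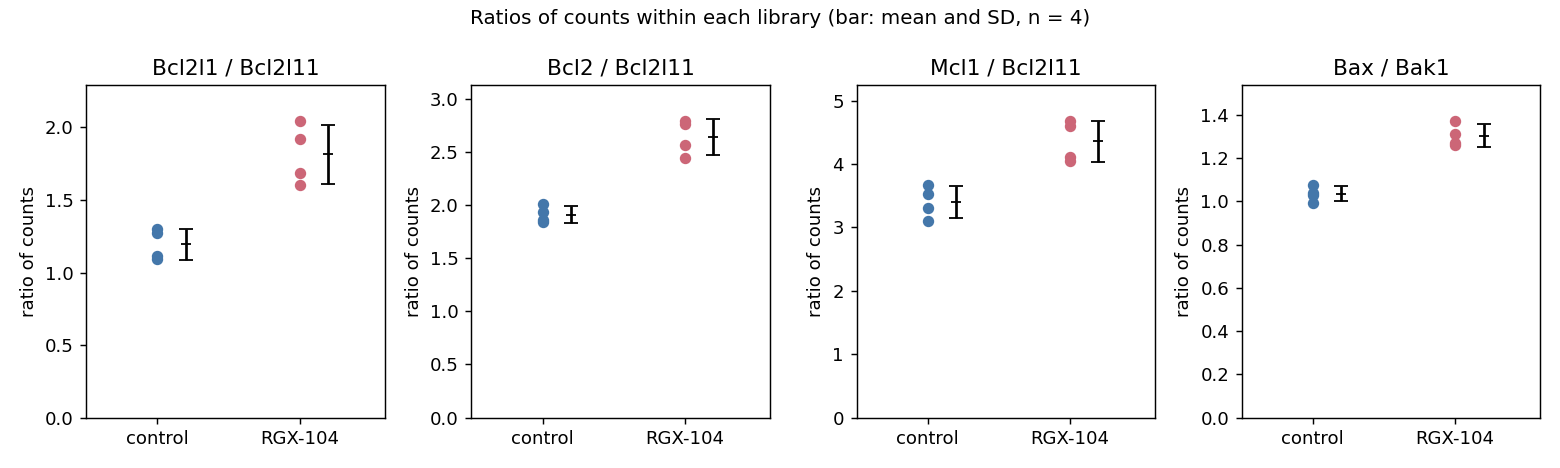
Ratio of counts of the named genes within each library (vertical axis, from 0). Points are libraries and the bar is the mean with the SD of 4 libraries. The Bcl2l1 to Bcl2l11 ratio is 1.09 to 1.30 in control and 1.605 to 2.05 in RGX-104 libraries, and the Bax to Bak1 ratio 0.993 to 1.08 and 1.26 to 1.37.

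Nebl, Fam102b and Ifngr1 followed Bcl2l11 most closely over the 8 libraries, by the root mean square difference of centred log2 CPM among the 10392 genes whose mean log2 CPM was 1 or more. That difference was 0.0480 for Nebl, encoding the actin-binding protein nebulette, 0.0627 for Fam102b and 0.0635 for Ifngr1, encoding the ligand-binding chain of the interferon gamma receptor. Ifngr1 was at 94.2 ± 1.33 CPM in controls and at 70.6 ± 1.82 CPM with RGX-104 (SD, n = 4). Nebl was at 21.1 ± 1.79 and 15.2 ± 0.984 CPM. Like Bcl2l11, Nebl was lower in libraries 1 and 4 than in 2 and 3 in both groups. It was at 19.8, 21.3, 23.6 and 19.7 CPM in controls and at 14.5, 16.3, 15.8 and 14.3 CPM with RGX-104. This likeness follows from the choice of the gene by its profile over the same libraries.

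Among other homologues and BH3 genes 3 were called higher and 0 lower, of 15 tested and 19 listed, with a median log2 fold change of 0.08. Over all tested genes 4.82% were called higher and 4.13% lower, to be set beside the counts of this list and those below. With the column number as a block these shares were 8.34% and 6.82%. Bcl2a1d and Bcl2a1b, near-identical mouse copies of the anti-apoptotic A1 gene that NF-kB induces, were at 5.70 ± 0.333 and 15.4 ± 0.527 CPM in controls and at 7.42 ± 0.244 and 17.3 ± 0.611 CPM with RGX-104. Reads can be shared between these copies, so each value is uncertain. Bik, a BH3-only gene, was at 0.836 ± 0.217 and 1.32 ± 0.202 CPM, at most 49 counts in a library. Bcl2a1d passed whichever library was left out (edgeR adjusted p = 0.00217). Bcl2a1b passed only without control replicate 4, and Bik only without that library or RGX-104 replicate 2 (edgeR adjusted p up to 0.137 and 0.163 without others). Neither passed with DESeq2 (adjusted p = 0.0955 and 0.0823), and Bik did not with 1 surrogate variable (edgeR adjusted p = 0.0626). Bcl2l2, encoding BCL-W, and the BH3-only gene Bmf were not called, at 33.0 and 31.7 and at 3.91 and 4.505 CPM. At this depth Hrk had at most 3 counts in a library and was not tested.

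**Figure D4:**
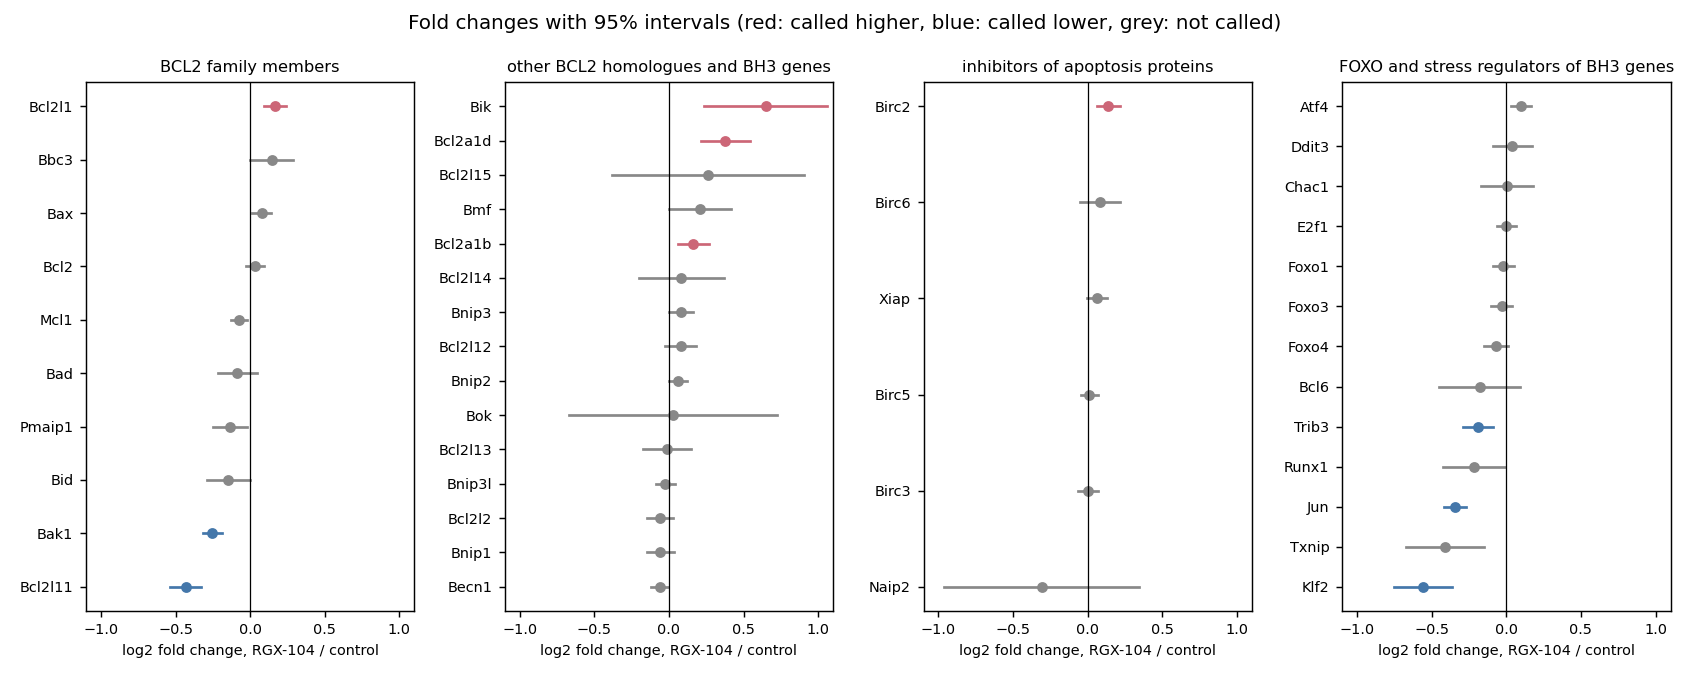
Log2 fold change (RGX-104 against control, horizontal axis) with its 95% interval for the tested genes of 4 lists. Red points were called higher, blue points lower and grey points were not called. Among the members Bcl2l1 is the red point at 0.17, and Bak1 and Bcl2l11 are the blue points at -0.26 and -0.43.

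Downstream of the mitochondria, genes of the apoptosome were not called in the main comparison. Apaf1, Cycs and Casp9, which form it, were at 87.8 and 83.2, 81.1 and 77.1, and 18.2 and 19.9 CPM in controls and with RGX-104. With the column number as a block Casp9 was called higher (log2 fold change 0.13; edgeR adjusted p = 0.0483). Casp2 was called lower, at 98.4 ± 4.25 and 91.1 ± 2.79 CPM (SD, n = 4; edgeR adjusted p = 0.0365). It lost its call in 5 of the 8 fits that left out a library, with edgeR adjusted p up to 0.133, and kept it without control replicate 1, control replicate 4 or RGX-104 replicate 3. With upper-quartile or total-count scaling it was not called, nor with 1 surrogate variable (edgeR adjusted p = 0.0505).

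Inhibitors of apoptosis proteins restrain caspases. Birc2 was called higher, at 65.4 ± 3.79 and 72.0 ± 1.24 CPM, and 0 of the 6 tested genes were lower. Its call was lost without control replicate 4, RGX-104 replicate 1 or RGX-104 replicate 2 (edgeR adjusted p up to 0.0679), and with 1 surrogate variable (edgeR adjusted p = 0.0914). Xiap was at 127 and 133 CPM and was not called.

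In the death receptor pathway Fas fell and Tnfrsf10b rose, 1 in each direction of 10 tested. Fas, the receptor of FAS ligand, was at 26.0 ± 0.677 and 21.01 ± 1.201 CPM (log2 fold change -0.31 ± 0.05, SE; edgeR adjusted p = 5.42e-05). Tnfrsf10b, the TRAIL receptor, was at 24.5 ± 0.755 and 27.3 ± 0.895 CPM. Its call was lost without control replicates 3 or 4 or RGX-104 replicates 1 or 3 (edgeR adjusted p up to 0.0873), and with 1 surrogate variable (edgeR adjusted p = 0.0755). Fasl was at 14.3 and 14.1 CPM and was not called.

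The p53 list holds known regulators and targets that respond to DNA damage, as Bbc3, Pmaip1 and Bax do. Of 13 tested genes 3 were called higher and 1 lower (median log2 fold change 0.04). With the column number as a block 6 were higher, Sesn1, Trp53inp1 and Btg2 being added, beside 8.34% of all tested genes. The count of higher genes was 5 without the low-count filter and 2 with 1 surrogate variable. Zmat3 and Ccng1 rose by 0.22 ± 0.04 and 0.13 ± 0.03 (log2, SE; edgeR adjusted p = 5.95e-04 and 0.00756), and Tnfrsf10b, also on this list, is the third. Perp was at 69.1 ± 5.03 and 61.5 ± 1.16 CPM, and its lower call was lost without control replicate 3 (edgeR adjusted p = 0.0533). Trp53 itself was at 220 ± 7.27 and 214 ± 4.61 CPM and was not called (edgeR adjusted p = 0.411).

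Among FOXO and stress regulators, 3 of 13 tested genes fell and 0 rose, beside 4.13% lower and 4.82% higher over all tested genes. Jun, part of the AP-1 factor known to drive Bcl2l11 in other cells, was at 54.3 ± 1.498 and 42.8 ± 1.22 CPM (log2 fold change -0.34 ± 0.04, SE; edgeR adjusted p = 1.76e-07). Klf2, a FOXO1 target in T cells, was at 5.72 ± 0.520 and 3.88 ± 0.228 CPM. Trib3, a gene of the ATF4 stress response, was at 20.5 ± 0.748 and 18.0 ± 0.822 CPM, and its call was lost without RGX-104 replicate 4 (edgeR adjusted p = 0.0724). Foxo3 and Foxo1, whose products induce Bcl2l11 when growth factors are withdrawn, were at 80.2 and 78.5 and at 178 and 175 CPM. Neither was called (edgeR adjusted p = 0.641 and 0.760). These are RNA levels, and the activity of the FOXO proteins was not measured. The FOXO targets named in this paragraph are not a full set, and any part of FOXO in their levels was not tested. Txnip, a FOXO target and inhibitor of thioredoxin, was at 73.0, 83.9, 95.8 and 89.2 CPM in control libraries and at 54.8, 65.4, 69.9 and 66.7 CPM in RGX-104 libraries. The groups were apart, with library 1 lowest in each, and the gene was not called in the main comparison (log2 fold change -0.41; edgeR adjusted p = 0.0712). With the column number as a block Txnip was called lower (edgeR adjusted p = 6.86e-15), which made 4 lower genes, and Atf4 was called higher (edgeR adjusted p = 0.00499). The list also had 4 lower genes with DESeq2 and without control replicate 1. It had 1 higher gene with limma-voom with sample weights, with upper-quartile or total-count scaling and without the low-count filter. The same count of higher genes was found without control replicate 4 or RGX-104 replicate 3.

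Cytokine survival signals reach the family through the receptors of interleukins 2, 7 and 15. Il2rb, the beta chain that the interleukin 2 and 15 receptors share, rose from 1147 ± 11.9 to 1393 ± 57.2 CPM (SD, n = 4; log2 fold change 0.28 ± 0.03, SE; edgeR adjusted p = 6.41e-08). Il15ra fell from 59.9 ± 2.62 to 52.7 ± 1.98 CPM and the kinase gene Akt2 from 133 ± 1.73 to 122 ± 3.40 CPM. Of 16 tested genes 1 was higher and 2 lower. With the column number as a block 5 were higher, Il2ra, Il2rg, Cish and Socs2 being added, beside 8.34% of all tested genes. The count of higher genes was 4 without the low-count filter and 3 without control replicate 4. It was 2 without RGX-104 replicate 2, with upper-quartile or total-count scaling, and with 1 surrogate variable. Il7r was at 79.6 ± 6.34 and 77.5 ± 2.26 CPM and was not called (edgeR adjusted p = 0.685).

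Of 18 genes for turnover and partners of BCL2 proteins 0 were higher and 1 lower. Dynll2, encoding a dynein light chain that binds BMF, fell from 50.5 ± 2.71 to 43.8 ± 1.56 CPM (edgeR adjusted p = 0.00107). A second row for Dynll2, a copy, held at most 5 counts. With the column number as a block 3 were lower, Vdac1 and Mapk9 being added, beside 6.82% of all tested genes. With limma-voom with sample weights there were also 3. There were 2 with DESeq2, without the low-count filter, and without control replicate 1 or control replicate 4.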

How the data were processed

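RNA sequencing of 8 libraries was analysed, 4 control and 4 with 2 µM RGX-104. The authors deposited a table of unnormalized whole-number counts. Build GRCm38 and the tools STAR 2.7.5, cutadapt 2.10, DESeq2 1.4 and R 4.1.0 are listed in the submitters' processing notes. The counter, its annotation and strandedness were not given in the sources used here. The 4 RGX-104 columns show their group but not their sample, and replicates are numbered by column.

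Genes were kept by filterByExpr (minimum count 10, minimum total 15), leaving 13290 of 41730. Groups were compared with edgeR 4.0.16 in R 4.3.3 (robust quasi-likelihood fit) after TMM scaling, with Benjamini-Hochberg adjustment over all tested genes. The procedure was also run on simulated data, in which each library was drawn independently and without any effect of the column number. The outcome is not reported here, so it lends no weight to the calls. Standard errors and 95% intervals came from the F statistic. Alternatives used DESeq2 1.42.0, limma 3.58.1 and sva 3.50.0.

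Columns of the 2 groups share numbers. Deviations from the group means of same-numbered columns correlated at 0.255, 0.231, 0.123 and 0.372, each the highest for its control library, so a fit with the number as a block is given where it changes a call of a named gene or a list's count.

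Gene coordinates are from RefSeq (GRCm38.p6), and exon lengths, strands and exonic overlaps from GENCODE M21. Members, lists and motifs were chosen with earlier results of these data known. Named were all members, up to 6 called genes of each list, the regulators Trp53, Foxo1, Foxo3 and Il7r, the LXR targets Abca1 and Abcg1, and the 3 genes closest to Bcl2l11. Uncalled list genes beyond these were chosen as examples after their values were seen. Some genes of the apoptosome and caspase list, and counts over that list, are not reported here.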

Additional observations from a re-analysis of the deposited data

How the results depend on the processing

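Each comparison was refitted under 19 alternatives. These were DESeq2, limma-voom with sample weights, 3 scalings, 2 filters, 1 surrogate variable and 2 thresholds. The others left out each of 8 libraries or added a replicate block by column number. Against a fold of 1.2 the members called higher went from 1 to 0 and those called lower from 2 to 1. Under the other alternatives Bcl2l1, Bak1 and Bcl2l11 kept their calls, with log2 fold changes from 0.13 to 0.19, from -0.27 to -0.23 and from -0.46 to -0.40. No member changed direction. With the paired replicate block 3 members were lower, Mcl1 being added, and 1109 and 906 of all tested genes were called higher and lower, against 640 and 549. Against a fold of 1.2, 65 and 45 were. At adjusted p under 0.01, 344 and 280 were. With upper-quartile scaling 752 were higher and 438 lower. The RGX-104 columns could not be matched to numbered samples, so what the shared numbers stand for is not known. For Bid, Bad, Bbc3 and Pmaip1, with 293 to 628 counts per library, standard errors of 0.06 to 0.07 (log2) limit what could be called.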
